A study of Mus musculus with 24 samples.

Results

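The genes described here encode the nuclear subunits of the 5 complexes of mitochondrial oxidative phosphorylation (OXPHOS). They were chosen by name: protein-coding genes of the mouse GENCODE M21 annotation whose symbols begin as Ndufa, Ndufb, Ndufc, Ndufs or Ndufv with a number (complex I), Sdha to Sdhd (complex II), Uqcr (complex III), Cox with a number from 4 to 8 (complex IV) or Atp5 (complex V). The rule gave 85 Ensembl identifiers with 84 symbols, of which 37 belonged to complex I, 4 to complex II, 8 to complex III, 18 to complex IV and 18 to complex V. All 85 were among the 54532 genes measured in tumors, and 84 were among the 35275 measured in cultured cells. Atp5o carried 2 identifiers, one of which overlapped Donson and had no reads. Ndufa4 and Ndufa4l2 are placed under complex I by their names, although Ndufa4 is now regarded as a part of complex IV.

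RNA-seq had been performed on 2 mouse mammary tumor lines derived from BALB/c mice, the dormancy-competent D2.1 and the proliferative D2A1. Each line was profiled in culture (3 and 3 libraries) and as tumors that grew after 1000000 cells had been placed in the mammary fat pad of female mice and that were collected at about 500 mm3. The hosts were immunocompetent BALB/c mice (4 and 4 libraries) and SCID-beige mice, which lack T and B cells and have defective NK cells (5 and 5 libraries). No transgene or treatment distinguished the groups, and both lines are established lines whose tumors also held host cells. Because the tumors were bulk samples, fewer cells of a type and less RNA per cell cannot be told apart.

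Oxidative phosphorylation passes electrons from NADH through complex I, or from succinate through complex II, to coenzyme Q, complex III, cytochrome c and complex IV, where oxygen is reduced. Complexes I, III and IV pump protons, and complex V uses the gradient to make ATP. All but complex II also contain subunits that are encoded by mitochondrial DNA, so that the nuclear and mitochondrial genomes must supply matched parts.

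The promoters show letters that some members share. RefSeq windows of 300 bases (GRCm38.p6, 250 bases before and 50 after the start) matched 68 of the 84 symbols, and both strands were searched. A consensus of the regulator NRF1, GCGCA and GCGC with 1 base between, was present in 16 of 68 member windows (23.5%) and in 6.91% of all 16524 windows. CCGGAAG, bound by ETS family factors, was present in 15 member windows (22.1%) against 12.3% of all. AAGATGGCG of YY1 was present in 6 (8.82%) against 2.02%, and each member match began 22 to 35 bases after the start and not before it. TCAAGGTCA of the estrogen-related receptors (ERR) was present in 2 (2.94%) against 0.339%. These shares are descriptions of letters and not of binding. The windows below are examples from members that held a match and are named in the results, so they do not represent all members that differed. Matched letters are in capitals, and each sequence is given 5′ to 3′ on the strand of the gene.
Atp5g2 (chr15:102671070-102671099, minus strand): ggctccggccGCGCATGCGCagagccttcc
Sdha (chr13:74350276-74350305, minus strand): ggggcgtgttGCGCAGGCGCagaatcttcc
Ndufb4 (chr16:37654371-37654400, minus strand): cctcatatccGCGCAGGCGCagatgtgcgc
Ndufa8 (chr2:36049349-36049378, minus strand): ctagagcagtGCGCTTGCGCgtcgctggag
Ndufa9 (chr6:126849096-126849125, minus strand): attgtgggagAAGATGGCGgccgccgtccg
Ndufb7 (chr8:83566727-83566756, plus strand): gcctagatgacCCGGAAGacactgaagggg
Uqcrh (chr4:116075062-116075091, minus strand): agtatgccgcaCTTCCGGccaggtcgccgg

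The first, Sdha, Ndufb4 and Ndufa8 windows hold the NRF1 letters, Ndufa9 holds those of YY1, and Ndufb7 and Uqcrh hold the ETS letters, with the match on the other strand in Ndufa8 and Uqcrh. A longer promoter is shown for Atp5g3, a subunit of the ring of complex V that was lower in tumors of the D2.1 line from both hosts, with the ERR letters on the other strand.
Atp5g3 (chr2:73911327-73911576, minus strand): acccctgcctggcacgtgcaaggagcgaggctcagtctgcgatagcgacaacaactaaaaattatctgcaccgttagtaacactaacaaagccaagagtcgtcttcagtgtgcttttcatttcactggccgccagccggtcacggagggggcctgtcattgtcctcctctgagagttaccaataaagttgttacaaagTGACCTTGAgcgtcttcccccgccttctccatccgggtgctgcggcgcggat

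Levels were compared between genes only as the deposited FPKM (fragments scaled to gene length and library total), within one table. Atp5b, the catalytic beta subunit of complex V, had the highest FPKM of the members, with group means of 947 in D2.1 culture, 803 in D2A1 culture, 1029 in D2.1 BALB/c tumors and 1251 in D2A1 SCID-beige tumors. The summed FPKM of all members was 8911 ± 1346 in D2.1 and 10310 ± 758 in D2A1 culture (SD, n = 3 and 3). It was 10200 ± 2231 and 12580 ± 2811 in BALB/c tumors (n = 4 and 4) and 10450 ± 989 and 13300 ± 2897 in SCID-beige tumors (n = 5 and 5). In each setting the D2.1 mean was the lower one, by less than the SDs of both groups added together. Complex V supplied the largest share of this sum in every group, and complex II the smallest. In culture the complex V share was 38.4% ± 2.97 in D2.1 and 34.8% ± 0.286 in D2A1 (n = 3 and 3). Among tumor groups it ran from 33.8% ± 1.71 in D2A1 SCID-beige (n = 5) to 35.2% ± 1.16 in D2.1 SCID-beige tumors (n = 5). With exon-union lengths in place of the deposited ones complex I led instead, at 31.0% against 30.6% for complex V in culture and 31.5% against 25.7% in tumors. The cell and tumor tables used other gene lengths, equal within 1% for 12.5% of 80 members, so that FPKM were not compared between culture and tumors.

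Several isoforms were nearly silent. Cox7b2 and Cox8c had no reads in any library, and Cox8b and Cox6b2 had none in culture. Ndufa4l2, a paralog of Ndufa4 known as a hypoxia-responsive gene, had 0 to 0.106 CPM (counts scaled to library size) in culture. In tumors it was 3.42, 1.51, 5.28 and 4.24 CPM in D2.1 and 8.11, 2.54, 8.93 and 9.60 CPM in D2A1 from BALB/c mice, and in SCID-beige mice 1.84, 1.41, 18.2, 16.1 and 3.78 CPM against 10.5, 7.91, 4.60, 7.85 and 5.80 CPM. The lines overlapped in both hosts. Cox4i2, the second form of the Cox4 subunit, stayed at 2.35 CPM or below in every library, whereas Cox4i1 was at 221 CPM or above.

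The first question was whether the lines differed before implantation. In culture, 20 of 76 members tested (26.3%) differed between D2.1 and D2A1 by the edgeR quasi-likelihood test at an adjusted p under 0.05, where 44.9% of all 12489 genes were called. In D2.1, 7 members were higher (background 24.2%) and 13 were lower (background 20.7%). The libraries of the lines did not overlap for 25 members, 17 of them lower in D2.1, which is 32.9% against 55.6% of all genes. The median log2 fold change (D2.1 over D2A1) was −0.09 for the members and −0.02 for all genes. With the replicate number as a block, 30 members (39.5%) were called where 60.4% of all genes were, and Uqcr10 lost its call (adjusted p = 0.0607 by edgeR). The count of called members was 7 without D2A1 culture replicate 1 and 9 without D2A1 culture replicate 2. Shares of all genes are not given for fits with a library left out, so these counts describe members only.

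Complex I oxidises NADH. Of its 36 members tested, 1 was higher and 5 were lower in D2.1 culture (16.7%, where 44.9% of all genes were called). Ndufs1, the large iron-sulfur subunit of the matrix arm, had 76.0, 70.4 and 82.3 CPM in D2.1 and 145, 152 and 162 CPM in D2A1. All D2.1 libraries lay below all D2A1 libraries, and the log2 difference was −1.01 ± 0.12 (SE, edgeR adjusted p = 0.000167). Ndufb9, an accessory subunit of the membrane arm, had 151, 118 and 116 CPM in D2.1 and 328, 340 and 260 CPM in D2A1, a log2 difference of −1.27 ± 0.16. Gm49356, on the same strand, covers 19.5% of its exons, so that its reads may be shared. Ndufa9, an accessory subunit of the matrix arm, had 100, 101 and 101 CPM in D2.1 and 142, 138 and 115 CPM in D2A1, a log2 difference of −0.38 ± 0.12. Ndufb3 and Ndufa10 were lower at −0.73 and −0.45, and Ndufa6 was higher at 0.57. Ndufv1, which binds NADH, did not pass the test (−0.35 ± 0.14).

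Complexes II and III each had calls in both directions. Sdhd, a membrane anchor of succinate dehydrogenase, had 158, 153 and 138 CPM in D2.1 and 116, 120 and 90.0 CPM in D2A1, a log2 difference of 0.46 ± 0.14. Sdhc, the other anchor, was lower at −0.32 ± 0.11, and the catalytic Sdha had 234, 252 and 258 CPM against 253, 257 and 263 CPM and did not pass the test. Uqcrfs1, the Rieske iron-sulfur protein of complex III, had 124, 116 and 109 CPM in D2.1 and 212.6, 213.7 and 171 CPM in D2A1, a log2 difference of −0.78 ± 0.13. Uqcr10 and Uqcrq were lower as well at −0.76 and −0.61. Uqcrh, the hinge protein next to cytochrome c1, was higher, at 112, 80.5 and 87.2 CPM against 58.4, 63.2 and 56.7 CPM (0.65 ± 0.15). The core proteins Uqcrc1 and Uqcrc2 lay at −0.02 and 0.02 without a call.

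In complex IV, Cox5b, Cox8a and Cox7b were lower in D2.1 culture (−0.59, −0.58 and −0.55), and Cox7a2 and Cox7a2l, the latter a factor of supercomplexes, were higher (0.59 and 0.35). D2.1 replicate 2 was the lowest D2.1 library for each of these 5 genes. In complex V, Atp5g2 was the member with the largest rise. It is 1 of 3 genes for the same ring subunit c, and had 223, 183 and 188 CPM in D2.1 and 116, 122 and 90.0 CPM in D2A1, a log2 difference of 0.86 ± 0.15. Its relatives Atp5g1 (0.09) and Atp5g3 (−0.33) did not pass the test. Atp5d, the delta subunit, was higher at 0.51 and lost its call with length and GC trends removed (edgeR adjusted p = 0.0564), and the abundant catalytic subunits Atp5a1 (−0.19) and Atp5b (0.37) were not called. Atp5s, a coupling factor of low level, was lower, at 2.99, 2.83 and 3.86 CPM against 7.95, 6.63 and 8.89 CPM (−1.28 ± 0.23).

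**Figure D1:**
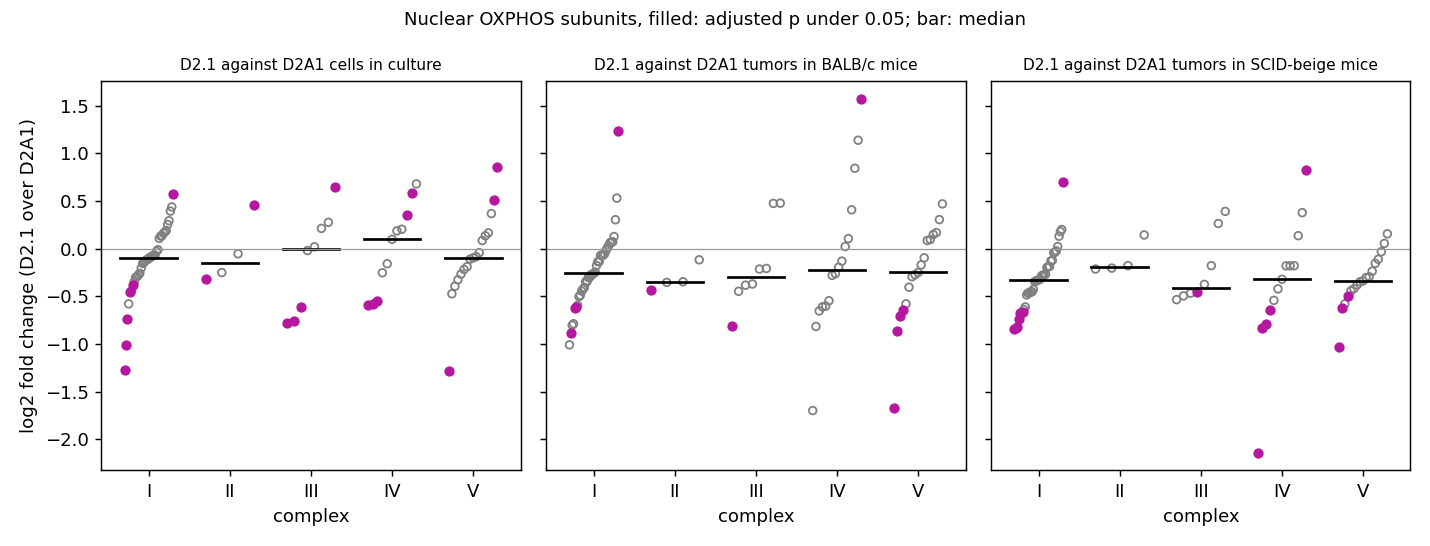
Log2 fold changes (D2.1 over D2A1, y axis) of each tested member by complex in the 3 comparisons between lines. Filled points passed an adjusted p under 0.05 and bars are medians, which lie below 0 for every complex in both tumor comparisons.

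In tumors of BALB/c mice, 11 of 82 members differed between the lines (13.4%, where 32.6% of all 14953 genes were called). Of these, 2 were higher in D2.1 (background 16.8%) and 9 lower (background 15.8%). Over all members 59 of 82 were below 0, with a median of −0.26 against −0.02 for all genes. The libraries did not overlap for 8 members, 7 of them lower in D2.1, against 34.2% of all genes. The block on replicate number called 38 members, 8 higher and 30 lower (46.3%), where 47.6% of all genes were called. With the trends of each library with gene length and GC removed, 26 were called, where 39.5% of all genes were. Without D2.1 replicate 1 the count was 7 and without D2A1 replicate 4 it was 6, and these counts describe members only.

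Ndufs1 was lower in D2.1, at 54.4, 43.3, 42.4 and 45.4 CPM against 89.4, 88.4, 80.7 and 84.7 CPM in D2A1. The groups lay well apart, and the log2 difference was −0.88 ± 0.14 (edgeR adjusted p = 0.00106). Ndufa9 was lower at −0.63. Ndufb7, an accessory subunit on the intermembrane side, went the other way. It had 121, 142, 214.6 and 207 CPM in D2.1 and 58.8, 49.7, 101 and 83.9 CPM in D2A1, without overlap (1.23 ± 0.26). Sdha had 186, 152, 135 and 163 CPM in D2.1 and 210, 215.1, 204 and 236 CPM in D2A1, a log2 difference of −0.43 ± 0.14.

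Uqcrfs1 had 66.8, 64.3, 66.7 and 80.9 CPM in D2.1 and 108, 109, 135 and 139 CPM in D2A1, a log2 difference of −0.81 ± 0.15 without overlap. Atp5a1, the alpha subunit of complex V, had 569, 497, 516 and 538 CPM in D2.1 and 761, 801, 998 and 917 CPM in D2A1, again without overlap (−0.71 ± 0.14). Atp5g3 and Atp5s were lower at −0.64 and −1.67. Atp5f1, a subunit of the peripheral stalk, was lower at −0.87, but lost its call with length and GC trends removed (edgeR adjusted p = 0.135), and 23.2% of its 50-base stretches also occur in other genes. No member of complex IV was called lower, although 10 of the 16 tested were below 0. Cox5b, Cox7b and Cox4i1 (−0.61, −0.82 and −0.55) did not pass the test without the block and were lower with it. Cox6a2, the heart and muscle form of its subunit, was higher at 1.57 ± 0.51, on 5 to 38 reads per library. Summed skeletal muscle markers in these groups were 58.0 to 379 CPM in D2.1 and 13.8 to 88.0 CPM in D2A1, with 2 of 10 markers called higher and none at 0, and their part in the Cox6a2 result was not tested.

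In tumors of SCID-beige mice, 17 of 79 members differed (21.5%, where 32.1% of all 14355 genes were called). Of these, 2 were higher in D2.1 (background 17.2%) and 15 lower (background 14.8%). The median was −0.32 against 0.02 for all genes, 66 of 79 members were below 0, and the libraries did not overlap for 7 members, all lower, against 23.7% of all genes. Cytosolic ribosomal proteins, which are also short and abundant, had a median of −0.36 in the same comparison with 17 of 80 called lower. Their medians were 0.08 in culture and −0.13 in BALB/c tumors, where those of the members were −0.09 and −0.26. Their relation to the members' difference was not tested. Leaving out D2.1 replicate 3 or D2.1 replicate 5 gave 11 calls each, and leaving out D2A1 replicate 5 gave 26. Shares of all genes are not given for these fits. D2A1 replicate 5 held 1617 CPM of erythroid markers, where the other D2A1 tumors held 49.3 to 164 CPM, and their part in the count was not tested.

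Of 37 complex I members tested, 7 were lower and 1 was higher (21.6%, where 32.1% of all genes were called). Among them Ndufs3, Ndufs4, Ndufa8, Ndufa9, Ndufa13 and Ndufb4 were lower at −0.73, −0.66, −0.68, −0.68, −0.82 and −0.84. Other genes share 35.8% of the 50-base stretches of Ndufs3 and 37% of those of Ndufb4, and Tssk6 lies opposite 30% of the exons of Ndufa13. Ndufb7 was higher again, at 201, 167, 141, 116 and 144 CPM against 118, 138, 84.8, 75.0 and 55.8 CPM, with overlap (0.70 ± 0.23). Ndufs1 had 49.8, 51.6, 56.9, 82.6 and 57.2 CPM in D2.1 and 64.0, 79.0, 82.9, 61.9 and 88.8 CPM in D2A1 and was not called (−0.33 ± 0.17). It was called without D2.1 replicate 4, its highest D2.1 library (−0.53, edgeR adjusted p = 0.0194).

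In complex IV, where oxygen is reduced, 4 of 13 members tested were lower and 1 was higher (38.5%, where 32.1% of all genes were called). Cox4i1 had 312, 319, 262, 311 and 259 CPM in D2.1 and 641, 727, 383, 428 and 342 CPM in D2A1, without overlap (−0.79 ± 0.21). Cox7b had 82.1, 86.4, 83.4, 69.0 and 67.1 CPM in D2.1 and 165, 207, 106, 118 and 92.8 CPM in D2A1, without overlap (−0.83 ± 0.21). Cox5b was lower at −0.65. Cox6c was the higher one, at 155, 213.4, 128, 228 and 137 CPM against 110, 149, 71.2, 86.7 and 67.6 CPM (0.83 ± 0.24), and its difference of 0.84 in BALB/c mice passed the test with the block but not without it. Cox7a1, the heart and muscle form, was lower at 0.288 to 0.597 CPM against 0.819 to 3.23 CPM (−2.14 ± 0.47), on 5 to 47 reads per library. Summed muscle markers in these groups were 2.33 to 316 CPM in D2.1 and 6.49 to 27.9 CPM in D2A1, with 1 of the 4 tested called higher in D2.1.

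In complexes III and V, Uqcrfs1 was lower at −0.46 ± 0.14 in SCID-beige tumors. Atp5a1 had 525, 540, 497, 725 and 512 CPM in D2.1 and 888, 1088, 814, 724 and 802 CPM in D2A1 (−0.62 ± 0.16), so that D2.1 replicate 4 reached the lowest D2A1 tumor. Atp5g3, whose promoter is printed above, had 152, 186, 159, 189 and 146 CPM in D2.1 and 238, 320, 205, 221 and 193 CPM in D2A1, without overlap (−0.50 ± 0.16). Atp5s was lower at 3.56, 4.11, 5.29, 2.80 and 3.46 CPM against 7.63, 8.26, 7.39, 8.16 and 8.07 CPM (−1.03 ± 0.25).

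**Figure D2:**
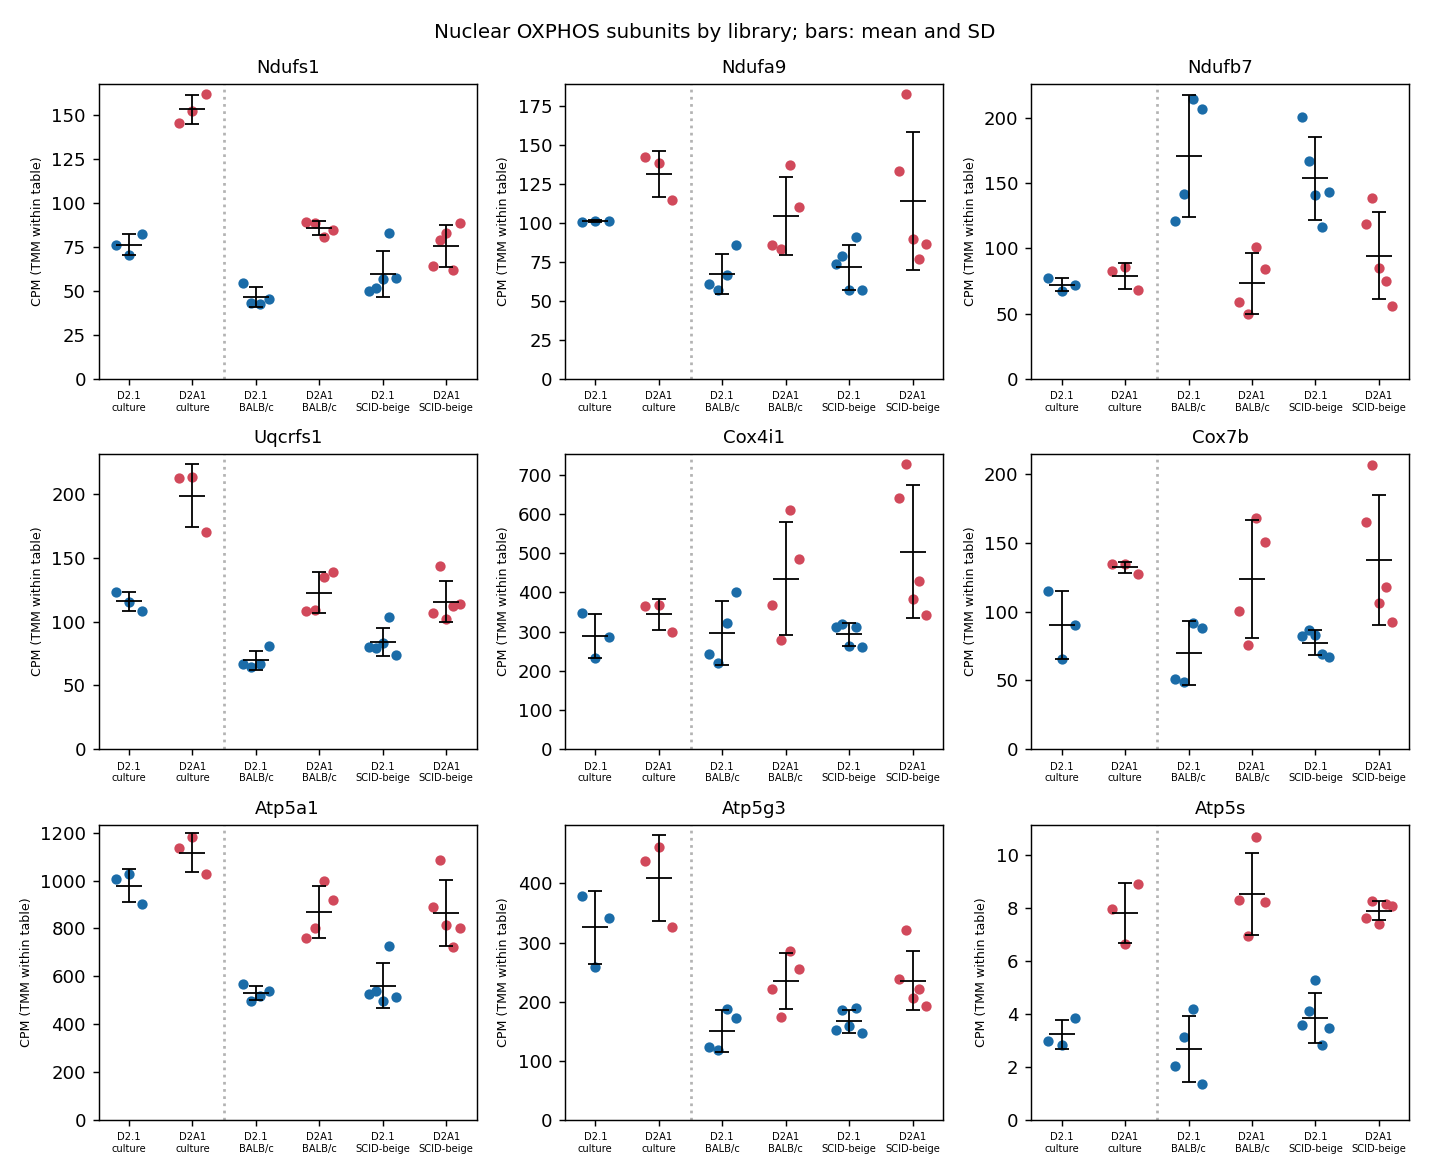
CPM (TMM scaled within the cell table or the tumor table, y axis) of 9 members in every library by group, with the mean and SD of each group. Atp5s lies at 1.35 to 5.29 CPM in all D2.1 libraries and at 6.63 to 10.7 CPM in all D2A1 libraries.

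The 3 comparisons between lines share no library. Ndufa9, Uqcrfs1 and Atp5s were called in all 3, each time lower in D2.1, although Uqcrfs1 lost its call in SCID-beige tumors with length and GC trends removed (edgeR adjusted p = 0.0676). In both tumor comparisons 7 of 79 members tested were called (8.86%), where 22% of all genes were. The 7 made up 63.6% of the 11 members called in BALB/c mice and 41.2% of the 17 called in SCID-beige mice, and over all genes tested in both these shares were 67.6% and 68.4%. They included Atp5a1, Atp5g3, Atp5s, Ndufa9 and Uqcrfs1, which were lower in D2.1, and Ndufb7, which was higher. Culture and BALB/c tumors had 4 of 76 called members in common (5.26%, background 21.2%), and culture and SCID-beige tumors 5 of 76 (6.58%, background 20.9%), all of the same sign. Of the genes called in all 3, Ndufa9 lies on the minus strand of chromosome 6 from 126821721 to 126849136, Uqcrfs1 on the minus strand of chromosome 13 from 30540308 to 30545362, and Atp5s on the plus strand of chromosome 12 from 69724950 to 69744660 (GRCm38).

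The second question was whether the immune state of the host altered the members. By edgeR none of 81 members tested was called in D2.1 tumors, where 0.891% of all genes were, and none of 80 in D2A1 tumors, where 1.17% were. DESeq2 called none either. At an unadjusted p under 0.05 edgeR gave Atp5f1 (−0.38) and Cox8b (2.65) in D2.1, where 9.97% of all genes passed, and Cox4i2 (1.23) and Sdha (0.30) in D2A1, where 10.1% did. The Cox8b value rested on 0 to 70 reads per library. The hosts did not overlap for 0 members in D2.1 (background 4.45%) and for 1 in D2A1, Sdha (background 5.35%).

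The median log2 difference of BALB/c over SCID-beige was −0.03 in D2.1 and −0.14 in D2A1 tumors, with a median standard error per member of 0.21 and 0.26. In D2.1 tumors 45 of 81 members were below 0 and in D2A1 tumors 65 of 80 (81.3%, where 48.2% of all genes were). Cytosolic ribosomal proteins were below 0 for 79 of 80 in D2A1 (median −0.20) and for 21 of 80 in D2.1 (median 0.09), and their relation to the members was not tested. The interaction of line and host, fitted over all 18 tumors, called no member of 82 by edgeR or DESeq2, where edgeR called 0.0187% of all genes. At an unadjusted p under 0.05 it gave Atp5f1 (−0.53) and Ndufs1 (−0.55), where 8.45% of all genes passed. A difference between hosts in the contrast of the lines was thus not shown for any member, Ndufs1 included.

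**Figure D3:**
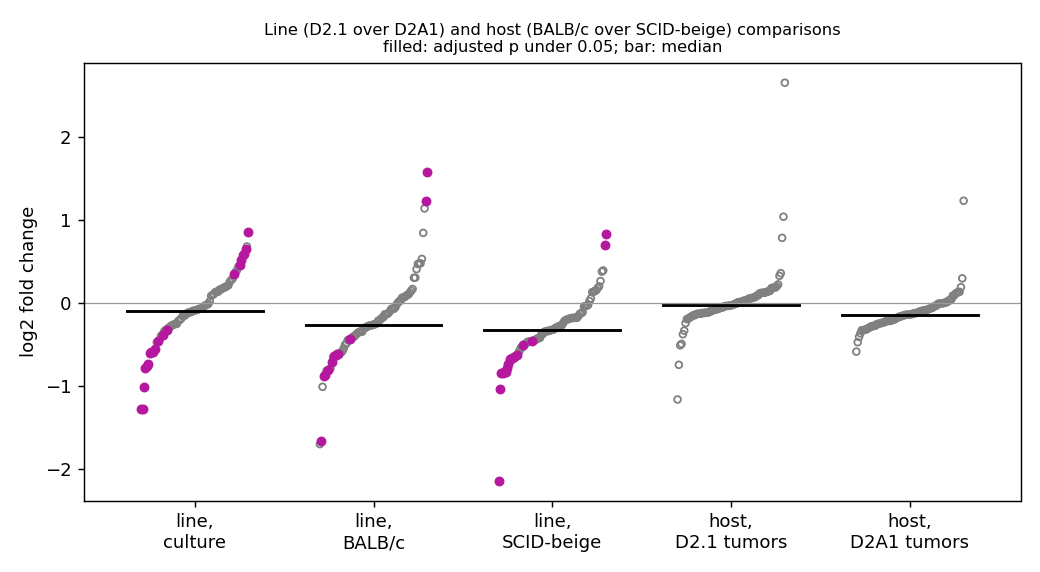
Log2 fold changes of members in the 3 comparisons between lines (D2.1 over D2A1) and the 2 between hosts (BALB/c over SCID-beige), filled where the adjusted p was under 0.05 and with bars at the medians. No point is filled in the host comparisons, which share their libraries with the tumor comparisons between lines.

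Tumors of one group varied widely in the level of the members. The median log2 deviation of the members from the mean of the tumor table was −0.45 and −0.52 in D2.1 BALB/c replicates 1 and 2 and 0.10 and 0.20 in replicates 3 and 4. In D2A1 BALB/c tumors it was −0.10, −0.44, 0.50 and 0.26 in the same order. D2A1 SCID-beige replicates 1 and 2 stood highest at 0.42 and 0.70. Cytosolic ribosomal proteins ranged from −0.45 to 0.51 in D2A1 BALB/c tumors and from −0.34 to 0.78 in D2A1 SCID-beige tumors. Members were short, with a median exon length of 1560 bases against 4135 bases for all genes tested in BALB/c tumors. Removing each library's trend with length and GC moved the members' median from −0.26 to −0.14 in BALB/c and from −0.32 to −0.20 in SCID-beige tumors.

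**Figure D4:**
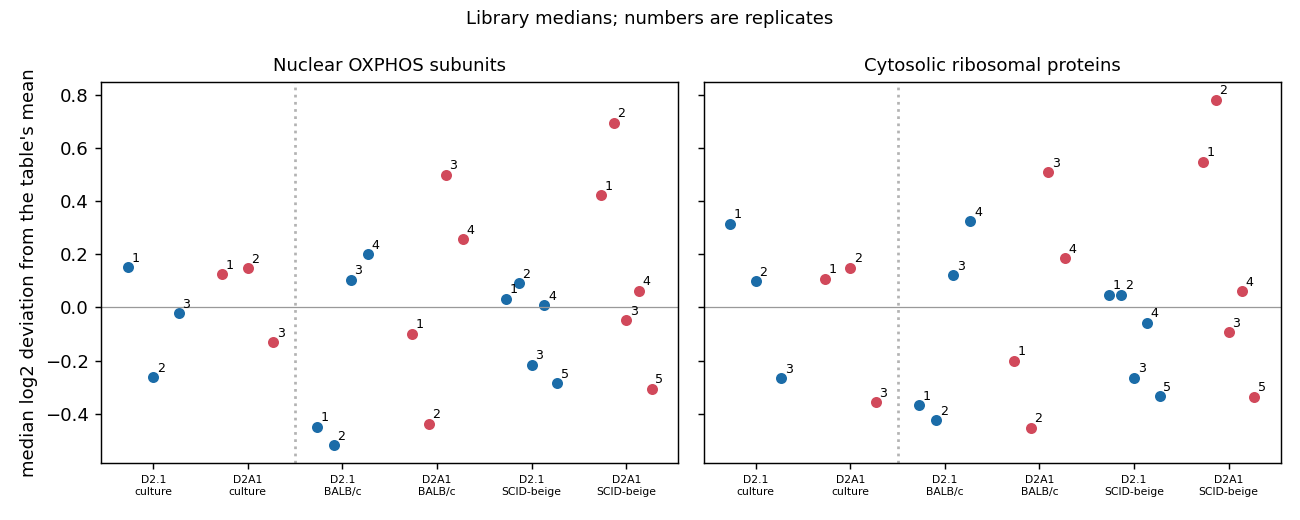
Median log2 deviation (y axis) of nuclear OXPHOS subunits and of cytosolic ribosomal proteins from the mean of the cell or tumor table, 1 point per library. D2A1 SCID-beige tumors spread from −0.31 to 0.70 for the OXPHOS subunits.

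The mitochondrially encoded subunits, the partners of these members, had positive medians. Of 12 tested in culture, 4 were higher in D2.1 (33.3%, background 24.2%), namely mt-Nd3 (1.63), mt-Cytb (1.26), mt-Atp6 (0.87) and mt-Nd5 (0.81), and none was lower. The percent of counts on the mitochondrial chromosome overlapped between the lines in culture, at 1.05, 1.47 and 0.674 in D2.1 and 0.915, 0.783 and 0.585 in D2A1. In BALB/c tumors none of 13 was called by edgeR (background 32.6%), with 1 at an unadjusted p under 0.05. In SCID-beige tumors mt-Nd5 alone was called (0.89), where 32.1% of all genes were. The medians were 0.66, 0.16 and 0.29, where those of the nuclear members were −0.09, −0.26 and −0.32.

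Assembly factors build the complexes. Their counts are to be read against all genes, of which 24.2%, 16.8% and 17.2% were called higher and 20.7%, 15.8% and 14.8% lower in culture, BALB/c and SCID-beige tumors. Of 15 complex I factors, 7 were lower in D2.1 culture and 3 in each kind of tumor, and none was higher. Nubpl, which delivers iron-sulfur clusters, was lower at −1.98, −1.18 and −1.01 in culture, BALB/c and SCID-beige tumors. Of 4 complex II factors 1 was lower in culture and in BALB/c tumors, where it was Sdhaf3 (−1.51 and −1.34), and none was called in SCID-beige tumors. Of 6 complex III factors 1 was higher and 3 lower in culture, none was called in BALB/c and 2 were lower in SCID-beige tumors, Bcs1l (−0.68) and Lyrm7 (−1.08). Of the complex IV factors 4 were higher and 8 lower of 20 in culture, 6 were lower of 21 in BALB/c tumors, and 1 was higher and 3 lower of 21 in SCID-beige tumors. Cox16 and Coa6 were lower in both hosts. Of 3 complex V factors Tmem70 was lower in all 3 comparisons (−0.94, −0.85 and −0.56).

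The citrate cycle supplies NADH and succinate. Of 13 of its genes, 2 were higher and 6 lower in D2.1 culture, 8 were lower in BALB/c tumors and 5 in SCID-beige tumors, where 44.9%, 32.6% and 32.1% of all genes were called in either direction. Fh1, fumarate hydratase, was lower at −0.87, −0.92 and −0.89. Of 13 coenzyme Q synthesis genes, 1 was higher and 4 lower in culture, 2 and 2 in BALB/c and 3 and 1 in SCID-beige tumors, against the same shares of all genes. The kinase-like Coq8a was higher at 1.85 and 1.37 in the tumors. Of 3 further genes outside the naming rule, Cycs, cytochrome c, was lower in BALB/c tumors (−0.79) and Ndufab1 in SCID-beige tumors (−0.42).

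Among 12 regulators of mitochondrial genes, 2 were higher and 4 lower in culture, 1 was lower in BALB/c tumors, and 1 was higher and 1 lower in SCID-beige tumors. These were 50%, 8.33% and 16.7% of the list, where 44.9%, 32.6% and 32.1% of all genes were called. Myc was lower in D2.1 in all 3 (−1.59, −2.06 and −1.39). Nrf1, whose consensus is printed above, did not pass the test in any (−0.32, 0.14 and 0.01). Tfam, which packages mitochondrial DNA, was the higher one in SCID-beige tumors (0.46).

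The libraries held 16837260 to 24818234 counts in culture and 13566949 to 18355153 in tumors, and 38 pairs of replicates within groups held no copies. Of 7 mammary epithelial markers only Krt5 was at 0 in culture, where their sum was 2345 to 4649 CPM in D2.1 and 131 to 341 CPM in D2A1. Of the 5 tested there, 4 were called higher in D2.1 and 1 lower. In tumors 4 of 7 were higher and 1 lower in BALB/c mice, and 3 of 7 and 1 in SCID-beige mice. Their sums overlapped, at 363 to 600 CPM against 523 to 619 CPM in BALB/c and 480 to 1249 CPM against 451 to 893 CPM in SCID-beige mice. The summed fibroblast markers were already 1841 to 2628 CPM in cultured D2.1 and 76.7 to 98.8 CPM in cultured D2A1, with 3 of 3 tested called higher in D2.1. In tumors, 5 of 5 fibroblast markers were called higher in D2.1 in both hosts, at sums of 8682 to 14570 CPM against 1690 to 2717 CPM in BALB/c mice and 6202 to 14410 CPM against 1161 to 3023 CPM in SCID-beige mice. Of 5 endothelial markers 4 were lower in D2.1 in BALB/c mice and 5 in SCID-beige mice, and none of either list was at 0 in tumors. T cell markers summed to 50.9 to 135 CPM in D2.1 and 5.49 to 18.6 CPM in D2A1 BALB/c tumors, with 5 of 5 called higher, and B and plasma cell markers to 12.9 to 140.2 CPM and 0.433 to 3.71 CPM, with 1 of 1 tested called higher. The part of these lists in the member differences was not tested.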

How the data were processed

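RNA-seq was performed on 24 libraries in 6 groups. The authors aligned reads with STAR to mm10, per the submitters' processing notes, and the counter, annotation and strand setting are not given in the sources used here. The deposited count tables hold whole-number read counts per Ensembl gene, and the deposited FPKM equal the count divided by gene length and library total for 100% of genes. No per-sample column was left without a sample.

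Members and gene lists were chosen with earlier results of these data known. Counts were tested with edgeR 4.0.16 (R 4.3.3; TMM, filterByExpr, robust quasi-likelihood, Benjamini-Hochberg over all genes), with only the compared groups in each fit and all 18 tumors for the interaction. DESeq2 1.42.0, other filters and size factors, each library left out, a replicate block and removal of length and GC trends were alternatives, and the fit with both block and trend removal was added after seeing the data. CPM used TMM within each table. Scripts were tested on simulated data. Deviations of same-numbered libraries were positively correlated in culture (r = 0.184 to 0.491) and BALB/c tumors (r = 0.1004 to 0.491), so their blocked counts are given. The labels do not name the number as a batch or a pair. In BALB/c tumors only D2.1 replicate 2 was closest to the D2A1 library of its own number. In the SCID-beige comparison r was 0.253, 0.256, 0.179, −0.161 and 0.344, and D2.1 replicates 1, 2 and 5 were closest to their own number. Nothing in the labels says that culture replicates were separate cultures, so p-values may measure technical spread. Named genes were core subunits, tissue isoforms and, per comparison and complex, up to 3 called members of largest change in each direction. From each pathway list up to 2 called genes per comparison were named. Ndufa10, Ndufs4, Ndufa8, mt-Atp6, mt-Nd5 in culture, Nrf1 and the members listed only for the block were named after their values were seen. One member of complex I is counted but its values are not reported here.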

Additional observations from a re-analysis of the deposited data

Results flagged for a closer look

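Among 184 pairs of a named member and a tumor group, 5 had a library far from the others by Dixon's test. Chance flags about 1 of 20 groups, so the number flagged is not above that rate. D2.1 SCID-beige replicate 4 was high for Ndufb9 (203 CPM, the others 45.2 to 68.6), Ndufs1 (82.6 CPM, the others 49.8 to 57.2) and Atp5a1 (725 CPM, the others 497 to 540). The same library had the highest summed mammary epithelial (1249 CPM) and skeletal muscle (316 CPM) markers of its group, and their part in these values was not tested. Without it, 23 members were called in SCID-beige tumors in place of 17, with no share of all genes given, and Ndufb9 was called at −1.31. D2.1 BALB/c replicate 4 was high for Uqcrfs1 (80.9 CPM), and D2A1 BALB/c replicate 2 was low for Ndufa4l2 (2.54 CPM).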

How the results depend on the processing

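Requiring a log2 fold change beyond 1 left 3 members in culture, 3 in BALB/c and 2 in SCID-beige tumors. The replicate block called 38 members in BALB/c tumors (47.6% of all genes), and with length and GC trends removed 36, against 38 in culture. Removing the trends alone called 26 in BALB/c tumors (39.5% of all genes). Shares of all genes are not given for the fold change threshold, for block and trend removal together or with a library left out. Those counts therefore describe members only. The causes were not tested. Correlations of same-numbered libraries were positive for every number in culture and BALB/c tumors, and for all but replicate 4 in SCID-beige tumors. The block called 30 members in culture (60.4% of all genes), 22 of 79 in SCID-beige tumors (37% of all genes) and 0 in the host and interaction fits. With each library left out, the count ran from 7 to 20 in culture, 6 to 14 in BALB/c and 11 to 26 in SCID-beige tumors and was 0 in both host comparisons and the interaction. The medians then ran from −0.19 to 0.01, −0.42 to −0.12 and −0.43 to −0.22, from −0.16 to 0.08 and −0.32 to 0.01 between hosts, and from −0.08 to 0.29 for the interaction. With exon-union lengths in place of deposited FPKM, the shares of complexes I, II, III and V in the member sum were 31.0, 4.15, 10.6 and 30.6% in culture, against 28.6, 3.29, 9.09 and 36.6%. In tumors those of I, III, IV and V were 31.5, 10.4, 28.8 and 25.7%, against 28.6, 9.46, 23.2 and 34.6%, so that complex I and not V then led in both. For the values of single named members, the DESeq2 test added 6 calls and lost none, and no filter on low counts lost 5. The block added 25 calls and lost 1, trend removal added 19 and lost 3 (Atp5d, Atp5f1 and Uqcrfs1, once each), one fit of all tumors added 2 and lost 3, and leaving out each library in turn added 25 and lost 103. No called value changed sign.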
